A study of Arabidopsis thaliana with 2 samples.

Results

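The RPP4-RPP5 cluster on chromosome 4 and RPP7 on chromosome 1 of Arabidopsis thaliana hold genes for intracellular immune receptors. The loci described here are RPP4 (AT4G16860), SNC1 (AT4G16890), AT4G16900, AT4G16920, AT4G16940, RPP5 (AT4G16950) and AT4G16960 of the cluster, and RPP7 (AT1G58602). They are 8 of 27444 protein-coding genes on the nuclear chromosomes. Every region of changed methylation that overlapped 1 of these loci, or lay within 1 kb of it, was taken from all 6 of the authors' deposited tables, which gave 65 of 83934 regions. The loci were chosen by their position and by the signs of their CHG differences in earlier results from these same tables. Their values are therefore a description and carry no test.

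Methylation was measured by bisulfite sequencing, in which unmethylated cytosines are converted and methylated ones are not. The labels describe 1 library of ddb2-3, an insertion line (DsLoxHs195_05H) of DDB2, whose protein finds DNA lesions for global genome repair, and 1 library of Col wild type. Both were whole seedlings of 10 days, grown in liquid medium under 16 h of light and 8 h of dark. The authors' deposited tables compare ddb2-3 with Col, and a line called cen with Col. Each comparison has a table for the CG, the CHG and the CHH context, where H stands for A, C or T. The genotype of cen is not given in the labels used here. Both comparisons share Col, there are no replicates, and the tables hold neither reads nor errors, so depth per region is unknown.

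Each region carries 1 signed difference in methylation level, on a scale where 1 is a change from no methylation to full methylation, and every listed difference exceeds 0.1 in size. The tables do not say which library was subtracted. A positive value was read as Col minus the other line, so a positive value means lower in ddb2-3 or in cen, and a negative value means higher. All directions below rest on that reading. If it is wrong, every higher and lower is exchanged, but opposite signs stay opposite.

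The 7 loci of the cluster encode TIR-NB-LRR receptors, which sense pathogen effectors inside the cell and signal through EDS1. RPP4 and RPP7 give resistance to the downy mildew Hyaloperonospora arabidopsidis, and RPP5 is known for the same in the accession Landsberg erecta. A gain-of-function allele of SNC1 switches on defence without a pathogen and stunts the plant. RPP7 encodes a receptor of the coiled-coil class, and a retrotransposon within the gene is known to influence where its transcript ends. In Arabidopsis, CG methylation in gene bodies is copied by MET1, CHG methylation is kept by CMT3 together with histone H3 lysine methylation, and CHH methylation is set by DRM2 and CMT2, mainly over transposons and repeats. CHG methylation in a protein-coding gene often marks a transposon in or near it.

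The CHG regions listed at these loci were all lower in ddb2-3 and mostly higher in cen, and they lay at 4 of the 8 loci in ddb2-3 and 5 in cen. The authors' deposited CHG table for ddb2-3 listed 5 regions at the loci, all lower in ddb2-3, in RPP4, AT4G16900, AT4G16920 and RPP7. Their sizes ran from 0.145 to 0.202 with a median of 0.191, beside a median of 0.180 over all nuclear CHG regions of that authors' deposited table. Of all those nuclear regions, 39.3% were lower in ddb2-3. The authors' deposited CHG table for cen listed 8 regions, of which 7 were higher in cen, in RPP4, AT4G16900, AT4G16920 and RPP7, and 1 was lower, in RPP5. Their sizes ran from 0.110 to 0.179 with a median of 0.145, beside 0.175 over all nuclear CHG regions of that table. Of all those nuclear regions, 89.8% were higher in cen, so 7 of 8 was near the share over all regions. SNC1, AT4G16940 and AT4G16960 had no CHG region in either table.

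A lower CHG region thus lay at 4 of the 8 loci in ddb2-3, where 2.75% of all protein-coding genes had one in the gene or within 1 kb, and 2.78% of the 4274 genes at least as long as the shortest of the 8. A higher CHG region lay at none of them, where 2.49% of genes and 2.41% of the long genes had one. In cen, a higher CHG region lay at 4 of the 8 loci and a lower one at 1, against 5.30% and 1.09% of protein-coding genes and 4.98% and 1.17% of the long genes. Of the protein-coding genes with any CHG region in a table, 50.6% had only lower ones in ddb2-3 and 82.4% had only higher ones in cen. Of 657 protein-coding genes with a CHG region in both tables, 129 (19.6%) had only lower ones in ddb2-3 and only higher ones in cen. Another 327 (49.8%) had only higher ones in both lines, and 113 (17.2%) had only lower ones in both. Among the 8 loci, all 4 with a CHG region in both tables had lower ones in ddb2-3 and higher ones in cen. The loci were proposed in view of these signs, so nothing is read from the difference to 19.6%.

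**Figure D1:**
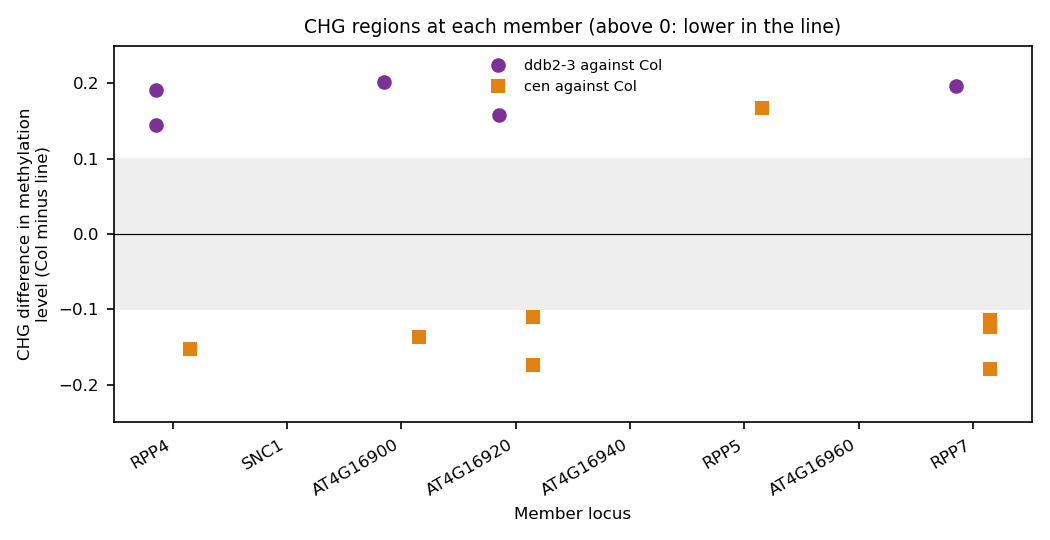
CHG regions at each of the 8 loci in the authors' deposited tables, plotted as the difference in methylation level (Col minus the line, no unit) for ddb2-3 (circles) and cen (squares). The grey band marks differences up to 0.1 in size, which the tables do not list; all 5 ddb2-3 regions lie above 0 (lower in ddb2-3) and 7 of 8 cen regions lie below 0 (higher in cen).

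The CHG regions of both lines lay at different places in each gene. No CHG region of a locus overlapped between the tables. The nearest pair adjoined, with no gap, in AT4G16900, and those of RPP7, RPP4 and AT4G16920 were 1200, 1500 and 2200 bp apart. Over all CHG regions, 901 had the same start and end in both comparisons, of 4440 listed for ddb2-3 and 6834 for cen. Partial overlaps were not counted there, so nothing is read from the lack of overlap at the loci. The tables list no values for windows below their limit, so the level of cen at a ddb2-3 region, and the reverse, is not known from them.

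RPP4 was the locus with the most lower regions in ddb2-3, 4 in CG and 2 in CHG, and it had no higher one. In the authors' deposited CHG table, chr4:9490801-9490900 had 0.145 and chr4:9491801-9491900 had 0.191, both within RPP4 and lower in ddb2-3. The CG values of the authors' deposited table were 0.117 at chr4:9490201-9490300, 0.142 at chr4:9490701-9490800 and 0.221 at chr4:9493501-9493600, all within the gene and lower in ddb2-3. The CG region at chr4:9490701-9490800 adjoins the first CHG region, so neighbouring windows were lower, one listed for CG and the next for CHG. A further CG region of the authors' deposited table, chr4:9487401-9487500 with 0.157, lay 966 bp outside RPP4, in AT4G16870, a locus annotated as a pseudogene. In cen the picture at RPP4 was mixed. The authors' deposited tables gave cen a CHG value of -0.152 at chr4:9489201-9489300 and CG values of -0.184 at chr4:9492201-9492300 and 0.282 at chr4:9492801-9493000. The cen line was therefore higher at the first 2 of these places and lower at the third, and none of them was listed for ddb2-3.

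AT4G16900, a TIR-NB-LRR gene, had the CHG change of opposite sign in adjoining windows. In the authors' deposited CHG tables, chr4:9513001-9513200 had 0.202 for ddb2-3, the widest CHG difference among the 8 loci, and chr4:9513201-9513400 had -0.137 for cen. The CG table that the authors deposited for cen listed the first 100 bp of the ddb2-3 region, chr4:9513001-9513100, with -0.251 (authors' deposited table), higher in cen. Further along the gene CG methylation was higher in both lines. The authors' deposited CG tables gave -0.439 at chr4:9514901-9515000 for ddb2-3 and -0.398 at chr4:9514801-9515100 for cen, which overlap. The authors' deposited CG table for ddb2-3 also held -0.138 at chr4:9514601-9514700 and -0.341 at chr4:9515301-9515400, both higher in ddb2-3, and 0.121 at chr4:9512201-9512300 and 0.285 at chr4:9514101-9514200, both lower. That for cen held -0.160 at chr4:9513901-9514000 (authors' deposited table), so its 3 CG regions in AT4G16900 were all higher.

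AT4G16920, of the same class, carried regions of all contexts in both lines. In ddb2-3, the authors' deposited tables gave CHG 0.158 at chr4:9522301-9522400 and CG 0.120 in the adjoining window chr4:9522401-9522500, both lower. As at RPP4, a CG and a CHG window side by side were thus lower. In cen, the authors' deposited tables gave CHG -0.173 at chr4:9524601-9524700 and -0.110 at chr4:9524901-9525000, both higher in cen. CG values of -0.234 at chr4:9524201-9524300 and -0.212 at chr4:9524901-9525100 lay beside and over them in the authors' deposited table for cen, again higher. A CG region 801 bp outside the gene, chr4:9526601-9526700, was lower in cen, with 0.441 in the authors' deposited table. CHH methylation was higher in both lines at the same window, chr4:9523101-9523200, with -0.154 for ddb2-3 and -0.152 for cen in the authors' deposited tables.

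RPP7 spans 19.7 kb in the RefSeq gene table, the longest of the 8 loci. This span may be longer than in the TAIR10 annotation, which was not used here, so regions near its low-coordinate end may lie outside RPP7 as TAIR10 draws it. Without RPP7, 3 loci had CHG regions lower in ddb2-3 and higher in cen. In the RefSeq span, RPP7 had lower CG and CHG regions in ddb2-3 near its low-coordinate end. The authors' deposited tables for ddb2-3 gave CG 0.341 at chr1:21747601-21747700, CHG 0.196 at chr1:21748401-21748500 and CG 0.236 at chr1:21749301-21749400, all lower in ddb2-3. The last of these lay in AT1G58561, a pseudogene annotated within the RPP7 span. A CHH region of the authors' deposited table, chr1:21754801-21754900 with -0.127, was higher in ddb2-3. In cen, the pseudogene held a window higher in 2 contexts, chr1:21749701-21749800, with CG -0.192 and CHG -0.113 in the authors' deposited tables. The other CHG values for cen were -0.179 at chr1:21750901-21751000, also in the pseudogene, and -0.124 at chr1:21759401-21759500, in the authors' deposited table. All 3 CHG regions of RPP7 were thus higher in cen.

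Over the rest of RPP7, cen was higher in CG at 4 more regions and lower at 2. The authors' deposited CG table for cen gave -0.140 at chr1:21754001-21754100, -0.112 at chr1:21757101-21757200, -0.289 at chr1:21761101-21761200 and -0.269 at chr1:21761501-21761600. It gave 0.133 at chr1:21763501-21763600 (authors' deposited table), lower in cen. At chr1:21762001-21762100 both authors' deposited tables held the same CG value, 0.179, lower in ddb2-3 and in cen. CHH methylation was higher in cen at chr1:21757401-21757500, with -0.102, and at chr1:21766601-21766700, with -0.151 and 553 bp outside the gene, in the authors' deposited table.

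**Figure D2:**
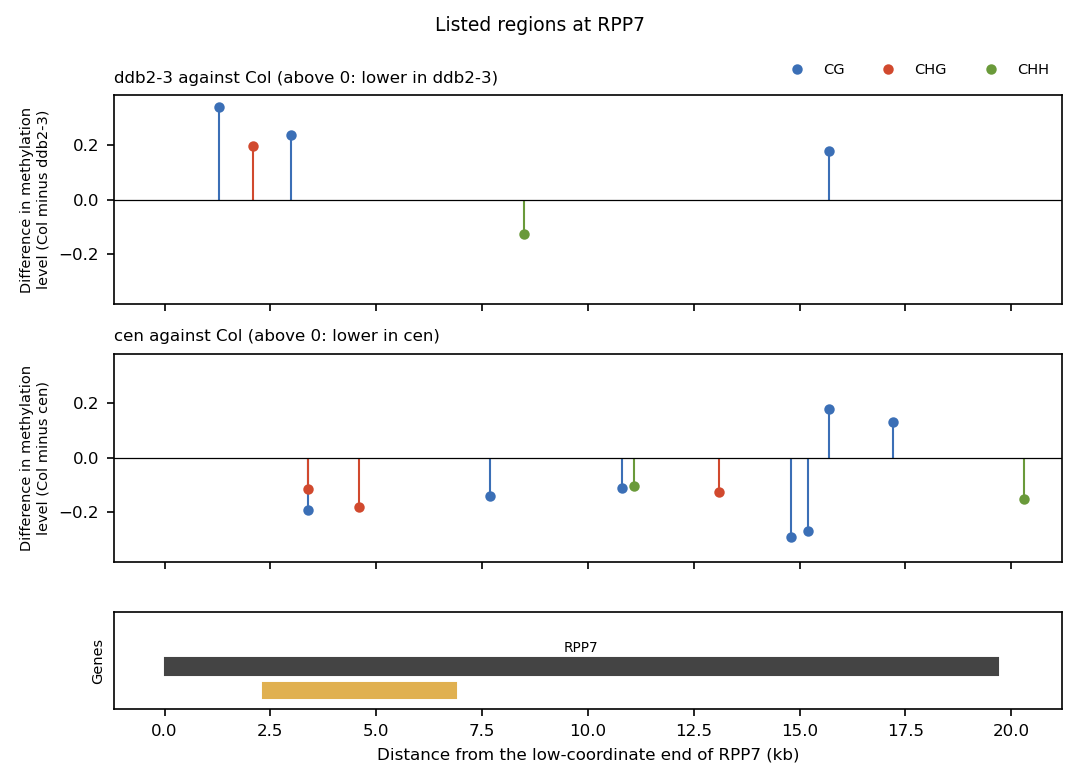
Regions at RPP7 in the authors' deposited tables for ddb2-3 (upper panel) and cen (middle panel), as the difference in methylation level (Col minus the line, no unit) against the distance from the low-coordinate end of RPP7 in kb; the dark bar is RPP7 and the amber bar the pseudogene AT1G58561. The 3 CHG regions of cen point down (higher in cen), while the CHG region of ddb2-3 points up (lower in ddb2-3), between CG regions of 0.341 and 0.236.

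SNC1, AT4G16940, RPP5 and AT4G16960 had no CHG region in ddb2-3, and their changes lay in CG. SNC1 had 1 region of each direction in ddb2-3, with 0.283 at chr4:9501101-9501200 and -0.196 at chr4:9504101-9504200 in the authors' deposited table. In cen both of its regions were higher, with -0.491 at chr4:9504301-9504400, the widest difference at any of the 8 loci, and -0.243 at chr4:9499901-9500000, 271 bp outside the gene, in the authors' deposited table. SNC1 was thus higher in both lines at windows 100 bp apart, chr4:9504101-9504200 in ddb2-3 and chr4:9504301-9504400 in cen.

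AT4G16940 had a single region in each table, the same CG window chr4:9533701-9533800, with 0.179 for ddb2-3 and 0.190 for cen in the authors' deposited tables. It was lower in both lines. RPP5 also had its CG region at the same place in both tables, but with opposite signs. At chr4:9543001-9543200 the authors' deposited tables gave 0.107 for ddb2-3 and -0.349 for cen, lower in ddb2-3 and higher in cen. The ddb2-3 value lay close to the limit of 0.1. The CHG region of RPP5, chr4:9542001-9542100 with 0.167 in the authors' deposited table for cen, was the only CHG region of the 8 loci that was lower in cen.

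AT4G16960, the shortest of the 8 loci at 3.63 kb, had the largest share of bases in listed CG regions. CG regions covered 10.7% of the gene and its 1 kb flanks in ddb2-3 and 14.2% in cen, against 1.02 to 7.32% at the other loci in either line. Of the 800 bp covered in cen, 500 bp were 1 stretch listed with both signs, given below, so the cen share rests largely on it. For ddb2-3, the authors' deposited table gave -0.336 at chr4:9547601-9547700 next to 0.147 at chr4:9547701-9547800, a change of sign between adjoining windows. The other values of that authors' deposited table were 0.181 at chr4:9548401-9548500 (lower), -0.257 at chr4:9549201-9549300 (higher) and, in the flanks, -0.196 at chr4:9546601-9546700 and -0.225 at chr4:9551601-9551700 (both higher). The flank regions lay in the neighbouring protein-coding genes AT4G16957 and AT4G16970. In all, 4 regions were higher and 2 lower in ddb2-3.

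In cen the same end of AT4G16960 was listed with both signs at once. The authors' deposited CG table held -0.272 over chr4:9547401-9547900 and 0.362 over chr4:9547501-9547800, which lies inside it, so no direction is read for cen there, and the counts below include 1 entry as higher and the other as lower. The other cen values of the authors' deposited table were 0.197 at chr4:9548401-9548500 and 0.128 at chr4:9549301-9549400, both lower, and -0.168 at chr4:9548901-9549000, higher. The window chr4:9548401-9548500 was thus lower in both lines, with 0.181 for ddb2-3 and 0.197 for cen in the authors' deposited tables.

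**Figure D3:**
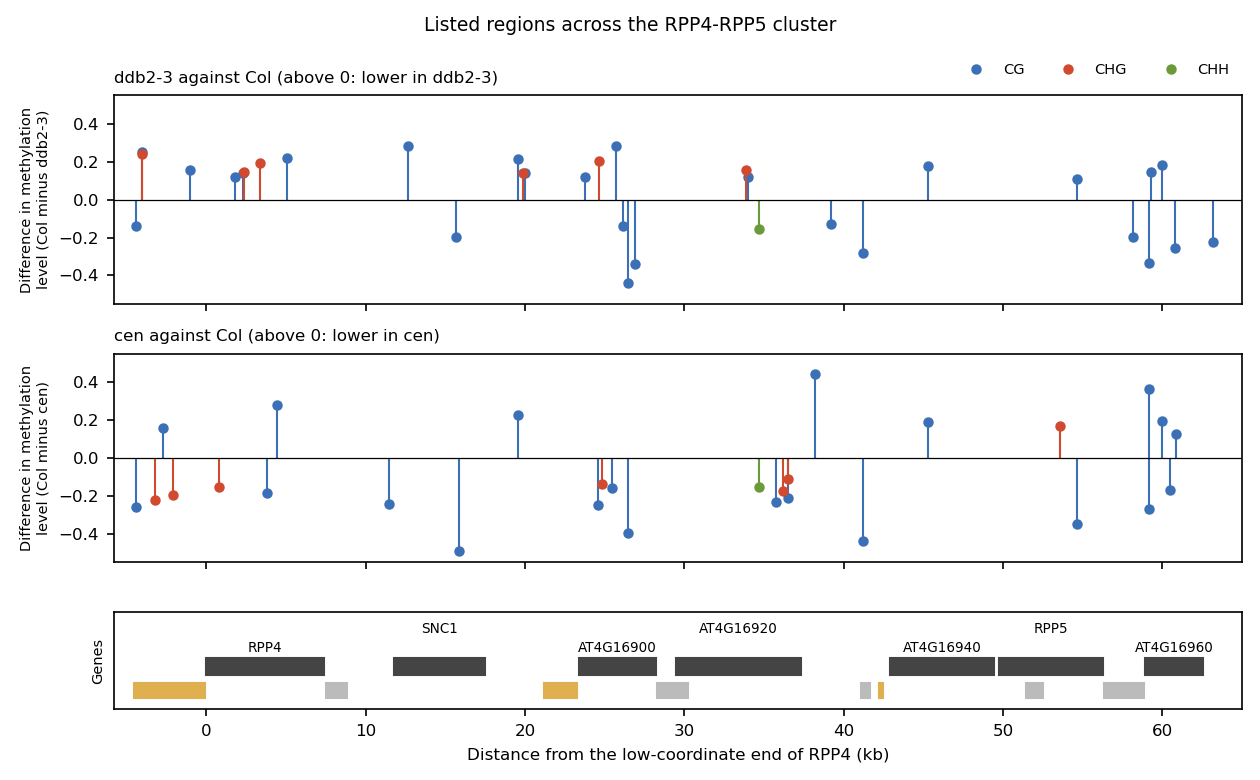
Regions across the chromosome 4 cluster in the authors' deposited tables for ddb2-3 (upper panel) and cen (middle panel), as the difference in methylation level (Col minus the line, no unit) against the distance from the low-coordinate end of RPP4 in kb. Dark bars are the 7 loci of the cluster described here, grey bars other protein-coding genes and amber bars pseudogenes; CHG regions of ddb2-3 all point up (lower in ddb2-3), while those of cen point down except in RPP5.

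Counted over the 8 loci, CG regions went both ways in both lines. In ddb2-3, 15 of 23 CG regions were lower and 8 were higher, beside 52.4% lower over all nuclear CG regions of that table. Every one of the 8 loci had a lower CG region and 3 had a higher one, where 43.0% and 39.0% of all protein-coding genes had one. Among genes at least as long as the shortest of the 8, these shares were 74.3% and 71.2%, so CG regions at long genes were common. In cen, 8 of 24 CG regions were lower and 16 higher, beside 42.9% and 57.1% of all nuclear CG regions of that table. Lower ones lay at 5 and higher ones at 7 of the 8 loci, where 40.1% and 46.0% of protein-coding genes had one. The share among the long genes was 72.3% lower and 77.5% higher in cen. The median size of the CG differences was 0.196 in ddb2-3 and 0.223 in cen, and 0.232 over all nuclear CG regions in each table.

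CHH changes were few and were all higher. There were 2 CHH regions in ddb2-3 and 3 in cen, at AT4G16920 and RPP7 in both. A higher CHH region thus lay at 2 of the 8 loci in each line, where 5.59% of protein-coding genes had one in ddb2-3 and 5.57% in cen. No lower CHH region lay at any of them, where 2.73% and 2.30% of genes had one. Of all nuclear CHH regions, 70.1% were higher in ddb2-3 and 78.5% in cen. The share among the long genes was not counted for CHH. Without RPP7, the longest of the 8 loci, each line had 1 CHH region.

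**Figure D4:**
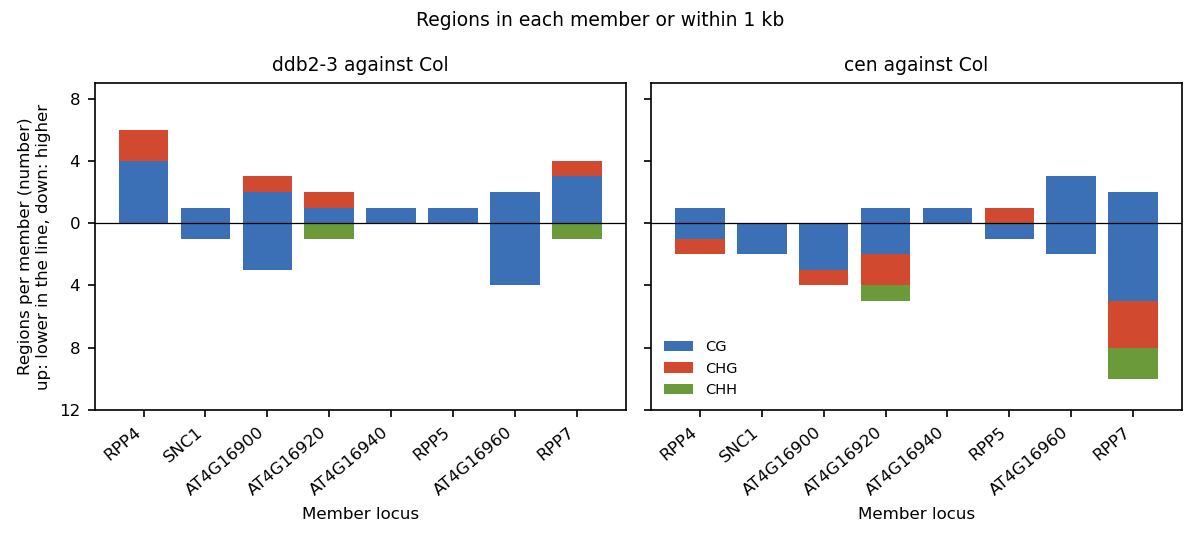
Number of regions in each of the 8 loci or within 1 kb, for ddb2-3 (left) and cen (right), stacked by context, with regions lower in the line drawn upward and higher ones downward. RPP4 has 6 lower regions and no higher one in ddb2-3, while RPP7 has 10 higher and 2 lower ones in cen.

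Of the 65 regions, 59 lay in a gene (27 in ddb2-3 and 32 in cen) and 6 only in a flank, and 56 were a single window of 100 bp, 28 in each line. The flanking region farthest from its gene was the CG region 966 bp from RPP4, given above. The nearest regions left out by the 1 kb limit were CHH windows next to RPP7, chr1:21744801-21745000 with -0.151 for cen at 1354 bp and chr1:21744801-21744900 with -0.134 for ddb2-3 at 1454 bp, in the authors' deposited tables. Both were higher, as the CHH regions inside the limit were.

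The few CHG regions between and beside the receptor genes were also lower in ddb2-3. For cen, no CHG region was listed between these genes, and those beside them, in the pseudogene next to RPP4, were higher. Over all nuclear CHG regions, 39.3% were lower in ddb2-3 and 89.8% were higher in cen. AT4G16870, the pseudogene next to RPP4, had a window lower in ddb2-3 in 2 contexts, chr4:9484401-9484500, with CG 0.250 and CHG 0.241 in the authors' deposited tables. The authors' deposited CHG table for cen listed -0.222 at chr4:9485201-9485300 and -0.199 at chr4:9486301-9486400 within the same pseudogene, both higher in cen. AT4G16857, a neighbouring protein-coding gene, had the same ddb2-3 window within 1 kb and no other CHG region. Between SNC1 and AT4G16900, the authors' deposited tables for ddb2-3 held CG 0.216 at chr4:9507901-9508100, CHG 0.142 at chr4:9508301-9508400 and CG 0.141 at chr4:9508401-9508500, all lower in ddb2-3. The first of these places was lower in cen too, with 0.229 in the authors' deposited table. At AT4G16930, a short gene of the cluster, chr4:9529601-9529700 was higher in CG in both lines, with -0.282 for ddb2-3 and -0.441 for cen in the authors' deposited tables. The CHG window between SNC1 and AT4G16900 lay at AT4G16892, a non-coding RNA locus that is not in the list counted next. Of 17 other loci in and beside the cluster, some of them pseudogenes, 2 had a lower CHG region and none a higher one in ddb2-3. Of all protein-coding genes, 2.75% and 2.49% had one. The 2 loci, AT4G16870 and AT4G16857, shared the same window. In cen, only AT4G16870 had a higher CHG region and none had a lower one, beside 5.30% and 1.09% of all protein-coding genes.

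Other receptors of the NB-LRR family had CHG regions about as rarely as protein-coding genes in general. Of 33 such genes elsewhere in the genome, 1 had a lower CHG region in ddb2-3 and none a higher one, beside 2.75% and 2.49% of all protein-coding genes. This was AT3G44630, a relative of RPP1, with 0.173 at chr3:16202201-16202300, outside the gene, in the authors' deposited table. In cen 1 of the 33 had a lower and 1 a higher CHG region, beside 1.09% and 5.30% of all genes. CG regions lay at 28 of the 33 in each line, with lower ones at 18 and higher ones at 24 in ddb2-3, and at 22 and 23 in cen. Among genes at least 3.63 kb long, 74.3% had a lower and 71.2% a higher one in ddb2-3, and 72.3% and 77.5% in cen. RPP8 and AT3G44400 had no region in any table, and whether reads covered them is not known.

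Of 8 relatives near RPP7 on chromosome 1, 2 had a CHG region in ddb2-3, higher in both cases, and none had a lower one, beside 2.49% and 2.75% of all protein-coding genes. These were AT1G58390, with -0.213 at chr1:21691101-21691200, and AT1G59780, with -0.396 at chr1:21992501-21992600 outside the gene, in the authors' deposited table. In cen, 1 of the 8 had higher CHG regions, beside 5.30% of all genes. AT1G58807, AT1G59124 and AT1G59218 had no region in any table, and whether reads covered them is not known.

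Among 20 genes that act with or upstream of these receptors, 12 had a lower and 9 a higher CG region in ddb2-3, beside 43.0% and 39.0% of all protein-coding genes. In cen, 10 had a lower and 11 a higher one, beside 40.1% and 46.0%. Among genes at least 3.63 kb long, the shares were 74.3% and 71.2% in ddb2-3, and 72.3% and 77.5% in cen. The 20 genes were not matched for length to either set. None had a CHG region in ddb2-3, and 1 had a higher one in cen, where 5.30% of all genes had one. This was TPR1, a corepressor that works with SNC1, with -0.125 at chr1:30264501-30264600 in the authors' deposited table. EDM2, the chromatin protein that controls RPP7, had a higher CG region, -0.218, and a lower one, 0.198, in the authors' deposited table for ddb2-3.

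The genes most like RPP4 and RPP7 in all 6 tables were sought among the 1382 other protein-coding genes with a CHG region in ddb2-3. Likeness was the Euclidean distance between the summed differences per 100 bp window in each table, over the gene and its 1 kb flanks, where 0 means the same sums. For RPP4 the nearest were SUVH9, a gene of RNA-directed DNA methylation (distance 0.241), AT3G44780 (0.294) and AT4G08460 (0.316). None of these had a net CHG difference in cen, where RPP4 had a sum of -0.152. For RPP7 the nearest were AT2G06000 (0.383), AT4G05470 (0.432) and AT4G26350 (0.458). Like RPP7, these had positive CG and CHG sums in ddb2-3 and negative CG, CHG and CHH sums in cen. In ddb2-3 the CHH sum was -0.127 for RPP7 and -0.136 for AT4G05470, but 0 for AT2G06000 and AT4G26350. The CHG sum of AT4G26350 in ddb2-3 was only 0.054. The genes were picked by these same sums, so nothing is read from the shared signs.

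The receptor genes of the cluster are related in sequence, and the handling of reads that match several copies was not stated in the labels or processing notes. The part of such reads in these differences was not tested.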

How the data were processed

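Per the labels, seedling DNA was bisulfite sequenced. The submitters' processing notes name TAIR10 as the genome and list Bowtie2 2.0, Bismark, Trim Galore, cutadapt and FastQC. The region caller, its threshold and its coverage limit are not given in the sources used here. Deposited by the authors were 6 lists of regions on a grid of 100 bp, each region with 1 difference in methylation level.

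The sign was inferred. Among regions at the same place with the same value in both comparisons (within 1.5e-06), 806 of 818 CG, 4 of 7 CHG and 5 of 5 CHH values were positive. Equal levels in both lines are likeliest at 0 or at full methylation. The ties were taken to be at 0, which puts Col above both lines. If they were at full methylation instead, every direction would be reversed. The 7 CHG ties do not decide.

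Gene spans came from the RefSeq table of TAIR10.1, which differs by name from TAIR10, so none of its coordinates are given, and it has no strand, exons or transposons. Of ddb2-3 CG regions, 78.4% had their midpoint in a protein-coding gene in place, and 57.7% and 58.4% after moves of 5000 bp. A region counted at a locus when at least 1 bp lay in it or within 1 kb. The counting equalled a direct count for 500 of 500 genes on simulated data.

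The loci and the lists of other genes were chosen with earlier results of these data known. Named from each list are up to 3 genes with the widest CHG difference in ddb2-3; TPR1, EDM2, AT4G16930, the stretch between SNC1 and AT4G16900 and the genes without a region were named after their values were seen. No test was run, since there is 1 library per group. A planned comparison of the receptors' protein sequences was not made here. Alternatives were other flanks, stricter limits, merging of neighbours and placement by midpoint. Python 3.11.15, pandas 2.3.3, NumPy 2.4.6 and matplotlib 3.10.9 were used.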

Additional observations from a re-analysis of the deposited data

Results flagged for a closer look

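The CG region of RPP5 at chr4:9543001-9543200 was listed at the same place in both comparisons with opposite signs, 0.107 for ddb2-3 (lower) and -0.349 for cen (higher) in the authors' deposited tables. The ddb2-3 value was the smallest CG difference of that line at the 8 loci, close to the limit of 0.1. At 4 of the 8 loci, RPP4, AT4G16900, AT4G16920 and RPP7, every CHG region listed for ddb2-3 was lower and every one listed for cen was higher. These differences between the lines were not tested, since each line has no replicate and both comparisons share Col.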

How the results depend on the processing

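With no flank, with a flank of 2 kb, with neighbours within 200 bp merged, and with regions placed by midpoint, all 11 counts over the 8 loci stayed within 1.5 times the reported ones. The CHG and CHH shares of protein-coding genes set beside these counts did move with the flank, while the CG shares stayed within 1.5 times. The share with CHG lower in ddb2-3 was 2.7511% as reported, 0.9182% with no flank and 4.2341% with 2 kb. For CHG higher in cen it was 5.3017%, 2.0004% and 8.3953%. Of these shares and the counts for the other gene lists, 24 moved and 36 stayed with no flank. With 2 kb, 17 moved and 43 stayed. Stricter limits on the difference moved counts over the 8 loci. With a limit of 0.15, the cen table held 4 CHG regions at the loci, 3 of them higher in cen, and the ddb2-3 table held 1 CHH region. With a limit of 0.2, ddb2-3 had 10 CG regions, 1 CHG region (lower, in AT4G16900) and 0 CHH regions, and cen had 13 CG, 0 CHG (0 higher and 0 lower) and 0 CHH regions. The number of loci with CHG lower in ddb2-3 and higher in cen was 4 as reported, 3 with the limit of 0.15 and 0 with 0.2. With RPP7 left out, an alternative chosen after seeing the data because its span may differ in TAIR10, 4 CHG regions were lower in ddb2-3, and cen had 5 CHG regions, 4 of them higher. Each line then had 1 CHH region, and 3 loci had CHG lower in ddb2-3 and higher in cen. No paired analysis was possible because each group has 1 library and the tables carry no replicates.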

Other observations

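Opposite signs over the same bases within 1 table, as at AT4G16960 in cen, were found for 128 pairs of CG regions in the authors' deposited table for cen and 104 in that for ddb2-3. In CHG and CHH there was 1 such pair each for cen and 0 for ddb2-3.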
